A study of Mus musculus with 6 samples.

Results

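The neurotrophin system was followed in whole mouse brains that carried either 1 or both intact copies of Pphln1, the gene for periphilin. The members were the ligand genes Bdnf and Ntf3 and the receptor genes Ntrk2, Ntrk3 and Ngfr, taken through every probe set annotated to exactly 1 gene with 1 of these symbols. That gave 4 of the 18193 genes with a probe set of their own, through 21 probe sets out of 45037 outside the manufacturer's controls: 2 for Bdnf, 8 for Ntrk2, 8 for Ntrk3 and 3 for Ngfr. No probe set used here carries the name Ntf3, so Ntf3 was not analysed here. The groups were 3 heterozygous periphilin knockout males (periphilin+/-) and 3 C57BL/6 wild-type littermates, all 2 months old, each brain on an Affymetrix array of its own. Where the disruption lies in Pphln1, and whether the mice come from 1 founder line, the labels do not say.

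Neurotrophins are secreted growth factors that keep neurons alive during development and tune synapses in the adult brain. They are made as proneurotrophins, which proteases cut to the mature form. Mature BDNF, from Bdnf, binds TrkB, the tyrosine kinase receptor encoded by Ntrk2, and neurotrophin-3, from Ntf3, binds chiefly TrkC, encoded by Ntrk3. The p75 receptor, encoded by Ngfr, binds all neurotrophins and, together with sortilin, the uncleaved proforms. Ntrk2 and Ntrk3 each give full-length transcripts and transcripts for truncated receptors without the kinase, and truncated TrkB is abundant in astrocytes. Bdnf transcripts start at several alternative promoters, one of which is a textbook case of induction by neuronal activity through the factor CREB, and all are spliced to a shared exon that encodes the protein.

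The start-site sequences are shown because Bdnf has several start sites, which the array values used here do not tell apart. The RefSeq promoter table (build GRCm38.p6) lists 7 Bdnf start sites spread over 48.2 kb of chromosome 2, 2 for Ntf3, and 1 each for Ntrk2 and Ngfr, with none for Ntrk3. Each window of 300 bases, from 250 before the start to 50 after it, was searched on both strands for the CREB-binding core motif TGACG and for the GC box GGGCGG, motifs that do not overlap each other here. The core motif lay in 1 of the 7 Bdnf windows, 35 bases before the start, and in none of the Ntf3, Ntrk2 and Ngfr windows. Of all 32841 windows in the table, 20.8% held it. The GC box lay in 2 of the 7 Bdnf windows, in both Ntf3 windows and in those of Ntrk2 and Ngfr, against 35.7% of all windows. The 250 bases before 3 of these starts follow, 5′ to 3′, with either motif in capitals: the Bdnf start with the core motif (chr2:109692186-109692435, + strand), the Bdnf start with a pair of GC boxes (chr2:109676782-109677031, + strand), and Ngfr, whose window held 4 GC boxes (chr11:95587699-95587948, - strand).
Bdnf start with core motif: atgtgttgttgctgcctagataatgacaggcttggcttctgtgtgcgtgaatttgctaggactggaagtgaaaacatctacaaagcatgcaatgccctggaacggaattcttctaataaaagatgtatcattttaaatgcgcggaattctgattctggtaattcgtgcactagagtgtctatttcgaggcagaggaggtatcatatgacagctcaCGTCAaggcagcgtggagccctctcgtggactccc
Bdnf start with GC boxes: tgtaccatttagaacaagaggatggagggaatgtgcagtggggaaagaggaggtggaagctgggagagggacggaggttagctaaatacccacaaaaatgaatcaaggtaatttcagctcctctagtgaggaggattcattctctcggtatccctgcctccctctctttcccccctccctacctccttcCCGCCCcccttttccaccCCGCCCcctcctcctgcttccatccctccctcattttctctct
Ngfr start: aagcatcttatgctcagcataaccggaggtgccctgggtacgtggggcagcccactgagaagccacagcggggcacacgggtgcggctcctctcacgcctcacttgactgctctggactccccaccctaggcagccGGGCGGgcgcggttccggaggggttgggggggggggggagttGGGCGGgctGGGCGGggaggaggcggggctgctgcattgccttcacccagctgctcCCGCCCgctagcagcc
A match is a stretch of letters and not evidence of binding, and the measurements below cannot say from which Bdnf start a transcript came.

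The deposited values are linear intensities that had been scaled to a common level. The mean of the central 96% of values was 150.0 on every array, and array medians ranged from 31.2 to 34.5. Every one of the 10 neuron markers checked was above the dim limit, a signal of 18.4 below which probe sets were not tested, and so were the 10 astrocyte markers. The targeted gene was not called at either probe set: Pphln1 measured 352.8, 269.2 and 337.5 in heterozygous brains and 294.9, 290.2 and 314.0 in wild-type brains at 1434822_at. At the dimmer 1435766_at it measured 30.6, 44.4 and 36.6 against 63.2, 47.3 and 46.3, without overlap, and the log2 differences were 0.08 (SE 0.11, limma adjusted p = 0.969) and -0.36 (SE 0.18, limma adjusted p = 0.956). The summed pituitary markers ranged from 190.2 to 6715.1 in heterozygous and from 802.5 to 21269.7 in wild-type brains, a wide spread within both genotypes. The highest sum was that of wild type 1, where the marker Prl measured 8306.3 against 38.8 to 3729.5 in the other brains. All 6 tested pituitary markers were lower in sign in heterozygous brains (median log2 difference -1.44), and none was called. The part of pituitary tissue in the values below was not tested.

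None of the neurotrophin and receptor probe sets passed the test between genotypes. Of the 21 probe sets, 17 lay above the dim limit, and none of the 17 was called by limma, with adjusted p from 0.956 to 0.996, against 0.0148% of all 27022 probe sets tested. None had an unadjusted limma p below 0.05 either (lowest 0.136), against 4.83% of all tested. In sign, 8 were higher and 9 lower in heterozygous brains, and no log2 difference exceeded 0.30 in size. The 95% confidence interval lay within a log2 change of 0.5 either way for 11 of the 17 and within 1, a factor of 2 on the log2(value + 16) scale, for all 17.

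**Figure D1:**
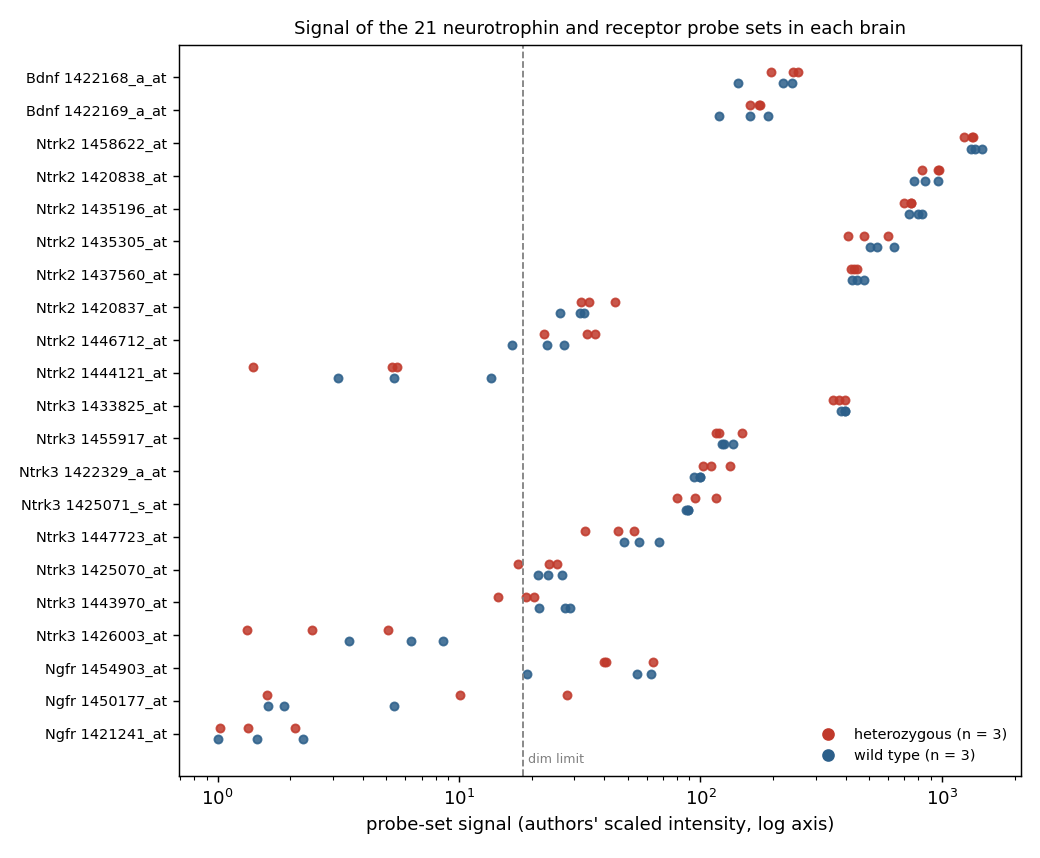
Signal of each neurotrophin and receptor probe set in each of the 6 brains, on a log axis in the authors' scaled intensity units, with heterozygous brains in red above wild-type brains in blue (n = 3 each) and the dim limit of 18.4 as a dashed line. The red and blue points overlap at all but 2 of the 17 probe sets above the limit, Ntrk3 1422329_a_at and 1443970_at.

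Bdnf, the ligand gene, was measured by a pair of probe sets of similar brightness, and both were higher in sign in heterozygous brains without passing the test. At 1422168_a_at the signal was 196.3, 240.9 and 254.4 in the heterozygous brains and 143.4, 239.3 and 218.9 in the wild-type brains. The genotypes overlapped, and the lowest value of all was wild type 1. The log2 difference was 0.21 (SE 0.17, 95% confidence interval -0.17 to 0.58, limma adjusted p = 0.956), a ratio of 1.16 with limits of 0.89 and 1.5. At 1422169_a_at the signal was 160.0, 175.8 and 175.4 against 119.4, 160.9 and 190.9, with a log2 difference of 0.13 (SE 0.15, -0.20 to 0.46, limma adjusted p = 0.966). Wild type 1 was again the lowest brain, while the highest was wild type 3 here and heterozygous 3 at the other probe set. Without wild type 1 the 2 differences were 0.0022 and -0.04, so the higher sign of Bdnf rested on that brain. Wild type 1 was also the brain with the highest pituitary sum, and a link was not tested. The suffix _a_at marks probes that match several transcripts of the same gene, and which start sites each probe set reads was not checked.

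Markers of excitatory cortical and hippocampal neurons, the main source of Bdnf in the forebrain, did not share a direction. The summed signal of the 7 measured markers was 3734.5 to 4594.2 in heterozygous and 3596.3 to 3715.5 in wild-type brains, without overlap, which held for 10.2% of single probe sets tested. The largest signal in that sum was Camk2a, a synaptic kinase gene, at 2040.3, 2809.7 and 2667.8 against 1897.7, 1687.8 and 1772.1 (log2 difference 0.47, SE 0.12). Of the 7 markers, 3 were higher and 4 lower in sign (median -0.01), with the glutamate transporter gene Slc17a7 and the transcription factor gene Neurod6 both at -0.27, and no marker was called over all probe sets. The part of these cells in the Bdnf values was not tested. In bulk tissue, fewer cells of a type and less RNA per cell cannot be told apart.

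Ntrk2, the BDNF receptor gene, had 5 bright probe sets, none called, that did not share a sign. At 1458622_at, the brightest, the signal was 1335.4, 1232.3 and 1339.7 in heterozygous brains and 1323.3, 1376.2 and 1469.9 in wild-type brains. The ranges overlapped, and the log2 difference was -0.09 (SE 0.08, 95% confidence interval -0.27 to 0.09, limma adjusted p = 0.958). At 1420838_at, next in brightness, the signal was 971.4, 826.8 and 966.1 against 851.7, 767.5 and 964.4, with a log2 difference of 0.10 (SE 0.10, -0.13 to 0.33, limma adjusted p = 0.961). Heterozygous 2 and wild type 2 were the lowest brains of their genotypes at this probe set.

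The other bright Ntrk2 probe sets lay slightly lower in heterozygous brains. At 1435196_at the signal was 695.0, 747.6 and 748.2 against 824.9, 728.5 and 797.8, with a log2 difference of -0.10 (SE 0.09). At 1435305_at it was 476.3, 408.2 and 596.8 against 503.0, 539.1 and 631.2, with a log2 difference of -0.18 (SE 0.14), and the highest brain of each genotype was replicate 3. At 1437560_at it was 433.9, 422.0 and 444.2 against 443.0, 423.1 and 477.5 (-0.04, SE 0.09). The genotypes overlapped at each of these 3.

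The dim Ntrk2 probe sets that were tested were higher in sign in heterozygous brains, as was the bright 1420838_at. At 1420837_at the signal was 44.4, 34.4 and 32.0 against 31.7, 26.2 and 32.9 (log2 difference 0.19, SE 0.17), and at 1446712_at it was 36.7, 22.5 and 33.8 against 23.2, 27.2 and 16.5 (0.29, SE 0.20). The values overlapped between genotypes at both, and the added constant of 16 shrinks log2 differences at such low signals. The last Ntrk2 probe set, 1444121_at, was below the dim limit in all 6 brains, at 1.40 to 13.6, and was not tested. Counted over the gene, 3 of the 7 tested Ntrk2 probe sets were higher and 4 lower in sign, from -0.18 to 0.29.

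Astrocyte markers are given beside Ntrk2 because astrocytes carry much of the truncated receptor. Their summed signal was 19035.1 to 21467.6 in heterozygous and 19584.5 to 20336.2 in wild-type brains, overlapping, with 3 of 10 markers higher and 7 lower in sign (median log2 difference -0.07). Slc1a3, a glutamate transporter gene of astrocytes, was lowest by test statistic at -0.27 (SE 0.12), and Gfap, an intermediate filament gene, lay at -0.40 (SE 0.20), neither called. The 3 higher markers were Aldoc at 0.16 (SE 0.09), Aqp4 at 0.05 (SE 0.13) and Aldh1l1 at 0.03 (SE 0.11), none called. The part of astrocytes in the Ntrk2 values was not tested, and the annotation used here does not say which probe set reads the full-length or the truncated transcript.

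Ntrk3, the receptor gene for neurotrophin-3, held both probe sets at which the genotypes did not overlap, and they pointed in opposite directions. At 1422329_a_at the signal was 102.8, 110.4 and 132.3 in heterozygous brains and 99.8, 93.6 and 99.1 in wild-type brains, every heterozygous brain above every wild-type brain. The log2 difference was 0.20 (SE 0.13, 95% confidence interval -0.09 to 0.49, limma adjusted p = 0.956). At the dim 1443970_at the signal was 18.9, 14.5 and 20.5 against 27.4, 28.8 and 21.4, every heterozygous brain below every wild-type brain. That amounts to -0.30 on the log2 scale (SE 0.19, -0.71 to 0.11, limma adjusted p = 0.956), and it was -0.50 and -0.13 with pseudocounts of 1 and 64. Among the 17 tested member probe sets the genotypes thus did not overlap at 2, and over all probe sets tested this held for 10.2%, 5.43% with the heterozygous brains higher and 4.81% with them lower. In each of the 2 the exact two-sided permutation p was 0.1, the smallest that 3 against 3 brains can give.

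The brightest Ntrk3 probe set was among the steadiest of the members. At 1433825_at the signal was 354.8, 375.4 and 396.9 against 395.5, 381.6 and 398.6, and heterozygous 1 was lowest. The log2 difference was -0.06 (SE 0.09, -0.26 to 0.14, limma adjusted p = 0.973). At 1455917_at it was 119.9, 116.2 and 148.3 against 125.6, 123.3 and 135.9 (log2 difference -0.01, SE 0.13).

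Among the dimmer Ntrk3 probe sets no sign was shared. At 1425071_s_at the signal was 80.0, 116.0 and 94.6 against 86.9, 88.9 and 88.8 (log2 difference 0.10, SE 0.15), so the wild-type brains lay inside the heterozygous range. The suffix _s_at marks probes that can also match transcripts of other genes, so this value is uncertain for Ntrk3. At 1447723_at the signal was 45.4, 33.3 and 53.3 against 55.8, 48.1 and 67.1 (-0.29, SE 0.18), overlapping, and at 1425070_at it was 17.6, 23.7 and 25.5 against 23.3, 21.3 and 26.8 (-0.06, SE 0.18). The eighth, 1426003_at, was below the dim limit in all 6 brains, at 1.32 to 8.57. Over the gene, 2 of the 7 tested Ntrk3 probe sets were higher and 5 lower in sign, from -0.30 to 0.20.

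Ngfr, which encodes the p75 receptor, was the dimmest member and the least steady. In the adult brain p75 is known chiefly from cholinergic neurons of the basal forebrain. At 1454903_at, its only tested probe set, the signal was 40.8, 39.8 and 63.3 in heterozygous brains and 62.2, 19.2 and 54.7 in wild-type brains. Wild type 2 stood well below the other 5 brains, and the genotypes overlapped. The log2 difference was 0.12 (SE 0.28, 95% confidence interval -0.50 to 0.74, limma adjusted p = 0.978), and without wild type 2 it was -0.24. At 1450177_at heterozygous 1 alone was above the dim limit, at 27.9, with the other 5 brains between 1.6 and 10.1, and 1421241_at lay between 1 and 2.25 in all 6.

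Markers of cells that are known to carry p75 were in part dim, 3 of 7 measured for cholinergic neurons and 1 of 5 for peripheral and olfactory ensheathing glia. Chat, the acetylcholine-synthesising enzyme gene, measured 0.787, 3.33 and 4.54 in heterozygous and 25.1, 10 and 11.5 in wild-type brains. Gbx1 was separated the other way, at 18.1, 13.8 and 15 against 8.82, 9.19 and 10.5. The choline transporter gene Slc5a7 measured 23.2, 12.4 and 6.96 against 10.7, 11.2 and 12.9, overlapping. These 3 were below the dim limit on average and were not tested, while Ache, Isl1, Slc18a3 and Lhx8 were above it. The summed signal of the 7 measured cholinergic markers was 495.2 to 571.6 against 492.8 to 542.0, overlapping. The largest signal in that sum was Ache, with means of 347.6 in heterozygous and 322.0 in wild-type brains, so the sum says little about the dim Chat. For peripheral and olfactory ensheathing glia, Pmp2 was below the dim limit, and the 5 measured markers summed to 3064.4 to 3373.6 against 3214.7 to 3420.3. The largest signals in that sum were Fabp7, with means of 1529.7 in heterozygous and 1651.9 in wild-type brains, and Npy, with 1246.8 and 1216.4. The sum therefore follows mainly these genes and is not a level of these glia alone. Npy was also listed among genes known to respond to neurotrophins or activity. The part of either cell type in the Ngfr values was not tested.

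**Figure D2:**
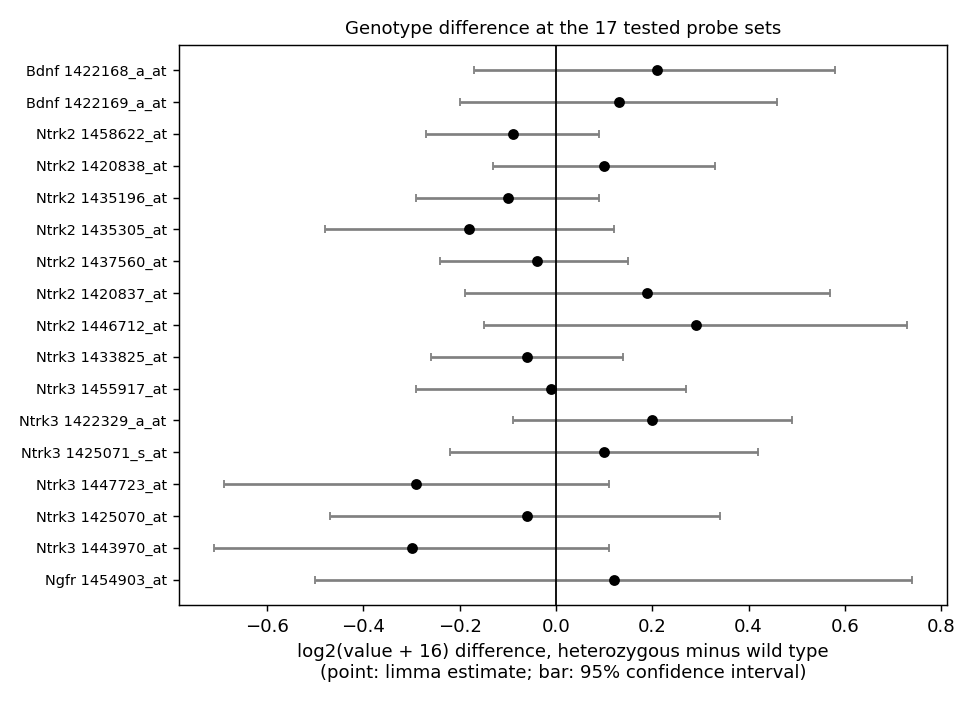
Difference in log2(value + 16) between heterozygous and wild-type brains at the 17 tested probe sets, with the limma estimate as a point and its 95% confidence interval as a bar. Every interval includes 0, the narrowest belong to bright Ntrk2 and Ntrk3 probe sets, and the widest is that of Ngfr at -0.50 to 0.74.

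Receptor and ligand levels can be placed within an array but not ranked as transcript amounts, because probe sets differ in how strongly they bind. By the brightest probe set of each gene, the signal fell in the order Ntrk2, Ntrk3, Bdnf, Ngfr on 6 of 6 arrays, with no overlap between neighbours. Among all probe sets of the array, Ntrk2 1458622_at stood at the 96.3 to 97.0 percentile and Ntrk3 1433825_at at 86.4 to 87.5. Bdnf 1422168_a_at stood at 73.2 to 81.9 and Ngfr 1454903_at at 39.9 to 60.7. Within genes the probe sets were spread far more widely, from a mean signal of 5.72 to 1346.1 for Ntrk2 and from 4.55 to 383.8 for Ntrk3, so the order of genes depended on the probe set chosen.

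The spread between brains of 1 genotype differed between the members. As a description, the within-genotype SD of the log2 values was set against that of the 1000 tested probe sets nearest in brightness. Ngfr 1454903_at had an SD of 0.49, above 97.4% of those neighbours, and Bdnf 1422168_a_at an SD of 0.29, above 94.9%. The second Bdnf probe set stood above 83.0% of its neighbours. The brightest probe sets of Ntrk2 and Ntrk3 had SDs of 0.07 and 0.06, above 19.9% and 7.40%, although Ntrk2 1435305_at, at 0.22, stood above 92.2%. The low brain differed: wild type 1 for Bdnf and wild type 2 for Ngfr.

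The balance of ligand and receptor was taken within each array and then compared between genotypes. The binding strengths of the probe sets stay in each balance and cancel only in that comparison, incompletely at low signals because of the added constant of 16. Bdnf minus Ntrk2, each by its brightest probe set, was -2.67, -2.28 and -2.33 on the log2(value + 16) scale in heterozygous brains and -3.07, -2.45 and -2.66 in wild-type brains. The difference of 0.30 between genotypes, higher in heterozygous brains, was about the size of the spread between wild-type brains (SD 0.32, n = 3), and the exact two-sided permutation p was 0.3 (0.6 adjusted over 2 pairs). Without wild type 1 it was 0.13, and with the mean of all tested probe sets of each gene it was 0.14. Bdnf minus Ngfr was 1.90, 2.20 and 1.77 against 1.03, 2.86 and 1.73, where the wild-type brains enclosed all heterozygous brains. The difference was 0.09 (exact permutation p = 0.8, adjusted 0.8), and 0.02 and 0.12 with pseudocounts of 1 and 64. It came to -0.34 when wild type 1 was left out, to -0.04 when heterozygous 2 was, and to 0.58 when wild type 2 was. With Ntf3 not analysed here, its balance with Ntrk3 and Ngfr was not computed.

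**Figure D3:**
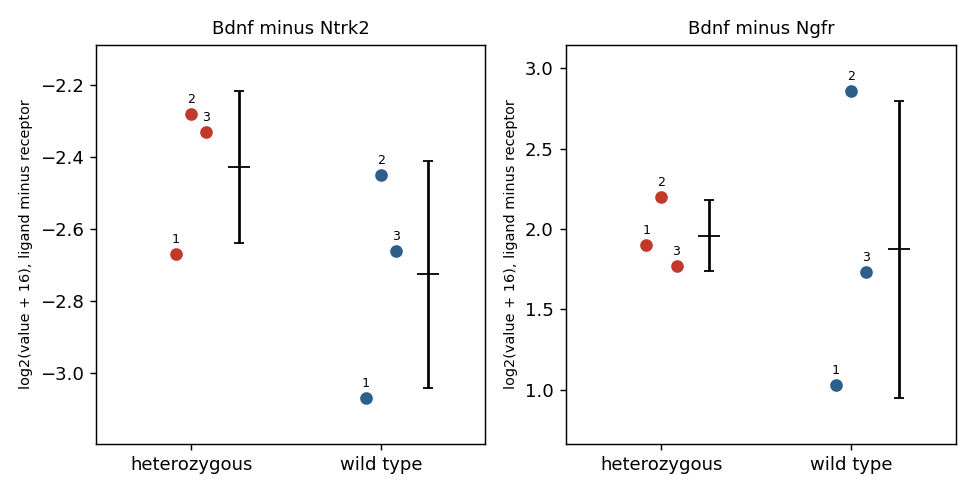
Bdnf minus Ntrk2 and Bdnf minus Ngfr in log2(value + 16) for each brain, labelled by replicate number, in red for heterozygous and blue for wild-type brains (n = 3 each), with mean and SD as a black bar beside each group. The genotypes overlap in both panels, wild type 1 is lowest in both, and wild type 2 is highest in the Ngfr panel at 2.86.

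Agreement between probe sets of the same gene was examined for the 13 pairs of a brightest probe set with another tested one. The genotype difference of the 2 probe sets in a pair differed by between -0.39 and 0.24 on the log2 scale, and no exact permutation p adjusted over the 13 pairs was below 0.433. In 2 of the 13 pairs the within-array difference did not overlap between genotypes. Among single probe sets tested this held for 10.2%, and the share over all pairs of probe sets was not computed. For Ntrk2, 1458622_at minus 1420838_at was 0.45 to 0.57 in heterozygous and 0.60 to 0.83 in wild-type brains, a difference of -0.19 (exact permutation p = 0.1, adjusted 0.433). For Ntrk3, 1433825_at minus 1422329_a_at was 1.48 to 1.64 against 1.83 to 1.86, a difference of -0.26 (exact permutation p = 0.1, adjusted 0.433). Both lower values mean that the second probe set was higher relative to the first in heterozygous brains, and neither pair passed.

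Probe sets of 1 gene also differed in whether they ranked the 6 brains alike. The Bdnf pair had Pearson's r = 0.86 (exact permutation p = 0.0639, adjusted over 13 pairs 0.277) and Spearman's rho = 0.60 (exact p = 0.242, adjusted 0.524). Without the 2 brains farthest from the median, r was -0.58, so the relation rested on those brains. Ntrk3 1433825_at and 1425070_at had r = 0.90 (exact permutation p = 0.0250, adjusted 0.163), rho = 0.83 (exact p = 0.0583, adjusted 0.190), and r = 0.89 without the 2 farthest brains. Ntrk2 1458622_at and 1435305_at had r = 0.88 (exact permutation p = 0.0236, adjusted 0.163), rho = 0.89 (exact p = 0.0333, adjusted 0.144), and r = 0.31 without them. By rank, Ntrk3 1433825_at also had rho = 0.89 with 1455917_at and with 1447723_at (each exact p = 0.0333, adjusted 0.144). At the low end of Pearson's r, Ntrk2 1458622_at had r = -0.31 with 1446712_at (exact permutation p = 0.597, adjusted 0.755) and rho = -0.09 (exact p = 0.919, adjusted 0.996). The lowest rho was -0.31, for Ntrk2 1458622_at with 1420837_at (exact p = 0.564, adjusted 0.916). None of the 13 relations passed after adjustment.

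Genes outside the family with the most similar pattern over the 6 brains were listed by Pearson's r of log2 values among 12396 probe sets, as a description with no test. Closest to Bdnf 1422168_a_at were Cert1 (r = 0.989), Ncald (0.989) and Slc31a1 (0.988), all lowest in wild type 1, as with Ncald at 1150.8 there and 1404.9 to 1549.7 elsewhere. Closest to Ngfr 1454903_at were Tmem229b (r = 0.993), Lrp10 (0.990) and Wdr6 (0.989), all lowest in wild type 2, as with Wdr6 at 853.3 there and 1060.8 to 1302.8 elsewhere. The Ntrk2 pattern was most like those of Bahd1 (r = 0.993), Itgb1 (0.984) and Igf1r (0.982), highest in wild type 3. The Ntrk3 pattern was most like those of Fnip1 (r = 0.993), Zfp995 (0.993) and Ankrd40 (0.986), lowest in heterozygous 1, and the Bahd1, Fnip1 and Zfp995 probe sets can match other genes.

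The other genes of the pathway, counted together with those of the GDNF and CNTF systems, showed no called difference. Of 147 genes listed by role, 129 had a probe set with 1 gene and 123 were tested by their brightest tested probe set. None of the 123 was called by limma in either direction, against 0.00768% of the 13024 genes tested. None had an unadjusted limma p below 0.05 either, against 4.41% of all genes tested. In sign, 66 were higher and 57 lower, with a median log2 difference of 0.01, equal to that over all genes. Within the neurotrophin family, Ntf5, which encodes neurotrophin-4, the other TrkB ligand, lay below the dim limit at 5.50 to 15.8.

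The sortilin family, coreceptors and sorting receptors for proneurotrophins, had 4 of 5 genes on the higher side (median log2 difference 0.19) and none called. Sorl1 measured 1778.1, 1931.8 and 2343.7 in heterozygous and 1322.1, 2136.3 and 1413.2 in wild-type brains, which is 0.33 on the log2 scale (SE 0.16, limma adjusted p = 0.956). Wild type 2 lay inside the heterozygous range. Sortilin itself, Sort1, a partner of p75 in binding proforms, was at 0.05 (SE 0.08), from 979.1 ± 10.6 to 1013.4 ± 10.9 (SD, n = 3 each). Sorcs2 was at 0.19 (SE 0.11), Sorcs3 at 0.26 (SE 0.15) and Sorcs1 at -0.14 (SE 0.17).

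Genes for processing and release of proneurotrophins had 7 of 14 tested members higher and 7 lower in sign (median 0.0022). The extremes by test statistic were the proprotein convertase gene Pcsk5 at -0.23 (SE 0.15) and the secretogranin gene Scg2 at -0.07 (SE 0.07), with Pcsk1 at 0.18 (SE 0.19) and the protease gene Mmp9 at 0.38 (SE 0.23). Mmp9 was dim, with means of 30.2 and 19.8. Plg and Mmp7 were below the dim limit.

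Adaptors and other proteins close to the Trk receptors had 13 of 24 members higher in sign (median 0.01). Lowest by moderated t were the ubiquitin ligase gene Nedd4l at -0.18 (SE 0.09) and Lrig1 at -0.24 (SE 0.11), and highest were the adaptor genes Gab1 at 0.18 (SE 0.10) and Shc1 at 0.23 (SE 0.16). Partners of p75 had 7 of 13 higher in sign (median 0.01). Traf6, an adaptor for p75 and immune receptors, was lowest by moderated t, at -0.41 (SE 0.20), with means of 65.3 in wild-type and 45.9 in heterozygous brains, followed by Bex1 at -0.16 (SE 0.11), with Maged1 at 0.08 and Adam17, which encodes a sheddase, at 0.10. None of these values is a call.

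Downstream, the kinases and GTPases of the Erk, Akt and calcium relays had 8 of 17 higher in sign (median -0.0022), by moderated t from Pdpk1 at -0.21 and Pik3r1 at -0.13 to Akt2 at 0.08 and Pik3cb at 0.12. Regulators of Bdnf transcription had 8 of 17 higher (median -0.02), with the histone deacetylase gene Hdac2 at -0.16 and Usf2 at -0.13 lowest by moderated t, and Mef2c at 0.05 and the CREB coactivator gene Crtc1 at 0.07 highest. Genes known to respond to neurotrophins or activity had 13 of 24 higher (median 0.04). Among these, at the ends by moderated t, the neurosecretory protein gene Vgf was at -0.18 and Crh at -0.31, while Nrn1 was at 0.16 and the neuropeptide gene Cort, dim at 41.8 and 24.9, at 0.46. The GDNF and CNTF systems, growth factor pathways separate from the neurotrophins, had 6 of 9 higher (median 0.01), by moderated t from Gfra2 at -0.20 and Gfra1 at -0.06 to Il6st at 0.16 and Nrtn at 0.27.

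**Figure D4:**
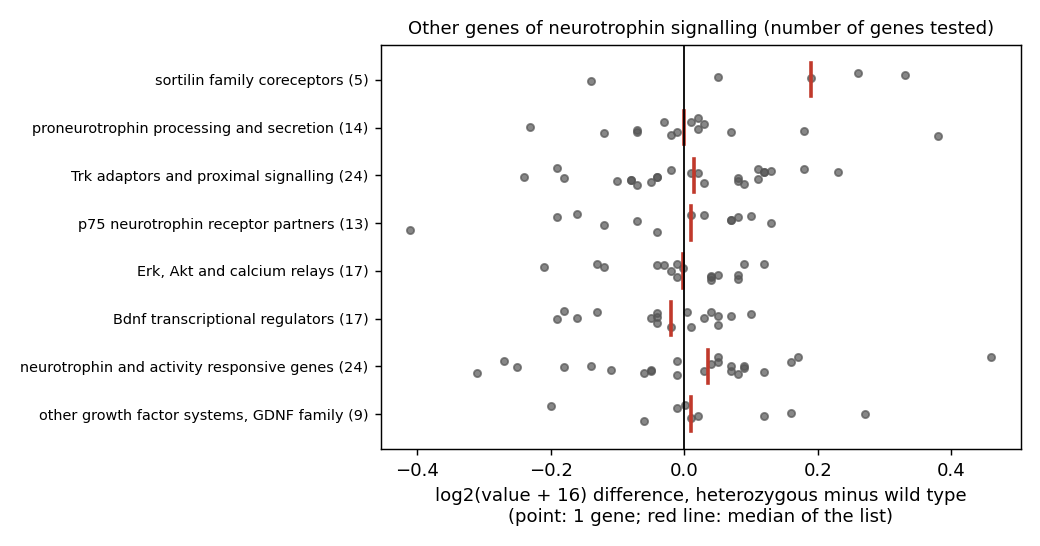
Difference in log2(value + 16) between heterozygous and wild-type brains for the other genes of neurotrophin signalling and of the GDNF and CNTF systems, 1 point per gene, grouped by role, with the number of genes tested in brackets and the median as a red line. All medians lie between -0.02 and 0.19, the highest being that of the 5 sortilin family genes, and no gene passed the test.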

How the data were processed

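RNA from 6 whole brains was measured on Affymetrix arrays after oligo(dT) priming, per the labels' protocols. The deposited values are linear intensities, 1 per probe set, scaled by the authors to a common level; the labels used here do not name the summarising software, and the number of arrays limits the precision. Probe sets were named by platform annotation updated to RefSeq symbols (34945 of 45037 have 1 gene, 932 several, 9160 none here). Values became log2(value + 16), and the 18015 probe sets at or below the 40th percentile of mean log2 value (signal 18.4) were left untested, leaving 27022. Genotypes were compared with limma 3.58.1 (R 4.3.3, eBayes with trend, Benjamini-Hochberg over all tested, threshold 0.05), and single values with two-sided exact permutation tests, which with 3 against 3 cannot go below 0.1. On simulated data of this design for 27022 probe sets, log2 changes of 2 were recovered in 99.4% and of 1 in 76.8%, but of 0.5 in 0%. The members and lists were chosen with earlier results of these data known. Named were every member probe set, Pphln1, all neurotrophin and sortilin family genes, the 2 highest and 2 lowest genes of the other pathway lists by moderated t, marker lists whose sums did not overlap, dim markers, and the 3 genes most like each member (mean signal at least 64, SD at least 0.1); other markers shown beside a member were chosen after their values were seen. Marker lists for other cell types had overlapping sums in both genotypes. Alternatives changed the normalization, pseudocount, dim filter, variance model, replicate block and each array in turn.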

Additional observations from a re-analysis of the deposited data

How the results depend on the processing

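No member probe set was called under any of the 16 alternatives to the limma fit, where the lowest adjusted p was 0.723 and log2 differences ranged from -0.50 to 0.46. The count of all probe sets called was 4, and 1 without the dim filter, 1 without the intensity trend, and 1 to 14 with single arrays left out, lowest without heterozygous 2 and highest without heterozygous 1. Some signs turned, none of them of a called value. With single arrays left out, Bdnf 1422169_a_at ranged from -0.04 (without wild type 1) to 0.27, Ngfr 1454903_at from -0.24 (without wild type 2; -0.04 without heterozygous 3) to 0.34, and Ntrk2 1437560_at from -0.08 to 0.0012 (without wild type 3). Likewise Ntrk3 1455917_at ranged from -0.11 to 0.05 (without heterozygous 2; 0.03 without heterozygous 1 or wild type 3), 1425071_s_at from -0.02 (without heterozygous 2) to 0.21, and 1425070_at from -0.12 to 0.03 (without heterozygous 1). The Bdnf minus Ngfr balance ranged from -0.34 (without wild type 1; -0.04 without heterozygous 2) to 0.58. Of the differences between probe sets, Ntrk2 1458622_at minus 1435196_at ranged from -0.06 to 0.06, Ntrk3 1433825_at minus 1425070_at from -0.05 to 0.03, and 1433825_at minus 1455917_at from -0.11 to 0.01. The other turns were Ntrk3 1455917_at at 0.0047 with array weights, Ntrk2 1458622_at minus 1435196_at at -0.0025 with quantile normalization, and Ntrk3 1433825_at minus 1425070_at at -0.03 with a pseudocount of 64. Apart from fewer arrays in some, the cause was not tested. The labels number the brains of both genotypes, the first heterozygous brain by order alone. Deviations of same-numbered brains correlated at 0.08, 0.20 and -0.02, so they were not treated as pairs. With the replicate block, 5 probe sets were called and no member, and the Bdnf minus Ntrk2 balance was 0.30 (exact permutation p = 0.25, the smallest 3 pairs can give). The balances of Ntf3 with Ntrk3 and Ngfr were not run. With 3 brains a group, log2 changes of 0.5 were not recovered in simulated data, so changes of that size may be missed.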
